A study of Caenorhabditis elegans with 2 samples.

Results

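Intron peaks away from tRNA genes are places inside protein-coding genes, outside their promoters and exons, where embryo chromatin of Caenorhabditis elegans was recovered with tagged M03D4.4, predicted to be a zinc finger protein of the C2H2 type. They were taken from the list on genome build ce11 that the authors kept by irreproducible discovery rate (IDR), a filter on peaks that rank alike in both replicates. A summit, the highest point of a peak, was dropped if a tRNA gene lay within 500 bp, or if a protein-coding gene began near, with the summit at most 1000 bp upstream or 500 bp downstream of that start. It was kept if it then lay in the body of a protein-coding gene and in no exon or UTR of one. The rule left 239 intron peaks of 1423 peaks on the 6 nuclear chromosomes. The remaining nuclear peaks were 656 promoter peaks, 270 intergenic peaks, 32 exon peaks and 226 peaks near tRNA genes.

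The chromatin came from strain OP696, unc-119(tm4063) III; wgIs696, whose transgene encodes M03D4.4 with a C-terminal GFP-FLAG tag, and it was precipitated with an anti-GFP antibody. The worms were whole mixed-stage embryos of both sexes, pooled, taken 2 h after egg bleaching. The design held 1 group of 2 biological replicates, with no second condition and no list of another tagged protein analysed here, so chromatin recovered whichever protein is tagged cannot be told apart from binding by M03D4.4. In whole embryos, binding in few cells and weak binding in many cannot be told apart either.

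Worm introns are mostly short, and a few are long and carry enhancers and start sites of alternative transcripts. Many worm snoRNA genes, whose RNAs guide the chemical modification of ribosomal and spliceosomal RNA, and many miRNA genes lie nested in introns of protein-coding genes. tRNA genes and some other small RNA genes are read by RNA polymerase III, in tRNA genes from a pair of promoter elements called the A box and the B box.

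Most of the strongest intron peaks lay at the 5' ends of nested snoRNA genes, so the sequences upstream of those genes are shown first. The word GTTCGA, the core of the B box, stood on the strand of the snoRNA gene within 150 bp upstream of 7 of the 28 snoRNA genes nearest to intron peaks, which is 25% (95% exact Clopper-Pearson interval 10.7% to 44.9%). It stood upstream of 13 of 47 other snoRNA genes with an IDR summit within 500 bp (27.7%) and of 9 of 271 with none (3.32%, 1.53% to 6.21%). Windows at 6 of the 7 are printed from the RefSeq copy of ce11, 5' to 3' on the strand of the snoRNA gene, with the word in capitals.
madf-11 with C05D2.15, chrIII:5602170-5602199, minus strand: aacagtccacaaGTTCGAccccgcttcatg
mix-1 with M106.6, chrII:10840288-10840317, plus strand: aatcgctcgcggGTTCGAggccggcagcat
T24H7.2 with T24H7.6, chrII:6248688-6248717, plus strand: cacacaatgtagGTTCGAcccccgctttac
unc-70 with K11C4.6, chrV:6889045-6889074, plus strand: gcgaggccgattGTTCGActgcgcttgctg
mdt-4 with ZK546.18, chrII:4942514-4942543, minus strand: agctgtccaccaGTTCGAttctcaatgcac
rbm-34 with F11A10.9, chrIV:12086677-12086706, plus strand: cggcgcccacgaGTTCGAcccccactgctt
The word began 8 bp before the annotated snoRNA gene at madf-11, 17 bp at mix-1 and T24H7.2, 19 bp at unc-70, 12 bp at mdt-4 and 20 bp at rbm-34. In all 6 windows the word began at most 20 bp before the snoRNA gene.

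A word found in the A box of many tRNA genes, GTGGTTA, was chosen after the sequences had been seen. It stood upstream of 6 of these 28 snoRNA genes (21.4%), against none of the 47 other snoRNA genes with an IDR summit near and 1 of the 271 snoRNA genes with no IDR summit near (0.369%). Windows at 3 of the 6 are printed in the same way, because mix-1 holds both words in front of 1 snoRNA gene.
mpk-2 with C04G6.12, chrII:5105265-5105294, minus strand: atgtgtggccgaGTGGTTAgcgtgcgcgct
mix-1 with M106.6, chrII:10840250-10840279, plus strand: gcgcgtggtctaGTGGTTAgcatgtgtgcg
ppat-1 with T04A8.17, chrIII:4689805-4689834, minus strand: tcgtgtgtccgaGTGGTTAgcgctgtttgc
The word began 51 bp before the snoRNA gene at mpk-2 and ppat-1 and 55 bp before it at mix-1. A full A box followed by a B box at a gap of 20 to 60 bp was found upstream of 7 of the 28 snoRNA genes (25%, 10.7% to 44.9%), against 2 of 271 (0.738%, 0.0895% to 2.64%). It was also found upstream of 12 of 47 snoRNA genes (25.5%, 13.9% to 40.3%) that had a summit near but were not the nearest snoRNA gene of an intron peak. The pair of boxes within 100 bp of the summit, on either strand, marked 8 of the 41 intron peaks near a small RNA gene (19.5%) and 3 of the other 198 intron peaks (1.52%). The same pair marked 13 of the 656 promoter peaks (1.98%) and 7 of the 270 intergenic peaks (2.59%). It marked 88.1% of the 226 peaks near tRNA genes and was in reach of 0.395% of the positions that the rule would accept. A match is a description of letters and was not tested as a promoter.

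Signal, the strength that the authors gave each peak on a scale not given in the sources used here, was compared between classes of peaks only within a list. Intron peaks had a median signal of 184 (quartiles 161 and 254, highest 2017), against 206 for promoter peaks, 188 for intergenic peaks and 205 for all nuclear peaks. Of the 100 strongest nuclear peaks 14 were intron peaks, and 12 of those 14 lay within 500 bp of a small RNA gene other than tRNA (snoRNA, snRNA, miRNA or rRNA). Intergenic peaks were alike, with 13 among the 100, of which only 2 had no such gene near. Promoter peaks made up 40 of the 100, and 29 of those had no such gene near. Intron peaks near such a gene had a median signal of 321 (quartiles 218 and 740). Those without one had 187 where the 5' end of another transcript was near and 171 where neither was near. So the class was uneven, with a small strong set and a larger set close to the lower edge of the list, which lay at 147.

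**Figure D1:**
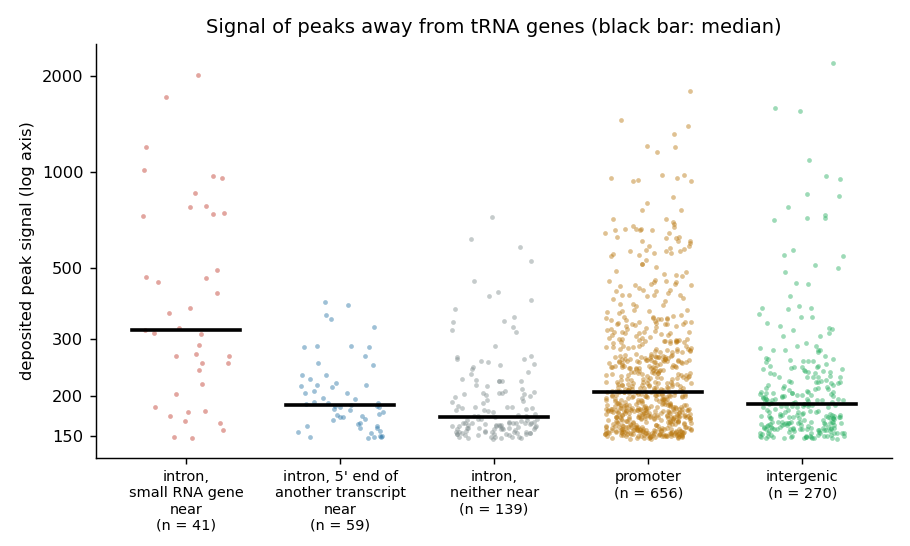
Deposited signal of each peak away from tRNA genes on a log axis, with intron peaks split into those near a small RNA gene (n = 41), those near only the 5' end of another transcript (n = 59) and those near neither (n = 139), beside promoter (n = 656) and intergenic peaks (n = 270); black bars are medians. The intron peaks near small RNA genes have the highest median, 321, against 187 and 171 for the other intron peaks, 206 for promoter peaks and 188 for intergenic peaks.

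Each intron peak was looked for in the relaxed list of each replicate, as a peak that shared at least 50% of either peak and had the nearest summit. A match was found for 239 in replicate 1 and 238 in replicate 2. Among the 1423 strongest peaks of both replicates, 157 of 239 intron peaks had a match (65.7%, 59.3% to 71.7%), against 70.2% of all nuclear IDR peaks. Among intron peaks the share was 90.2% (76.9% to 97.3%) for the 41 intron peaks near a small RNA gene and 60.6% (53.4% to 67.5%) for the other 198. A place among the strongest peaks depends on signal, and the median signal was 321 for the 41 and 178 for the 198. Those shares therefore do not compare the replicates at equal signal. The median log2 ratio of signal in replicate 2 over replicate 1 was -0.14 for intron peaks and -0.19 for all nuclear peaks, and replicate 2 was higher for 80 of the 238 intron peaks found in both. The scale of each replicate list is not given, so a difference in signal between replicates cannot be told apart from one of scale. In the relaxed pooled list 9550 peaks met the same positional rule and 239 of them passed IDR (2.50%, 2.20% to 2.84%), against 4.75% of all 29980 nuclear pooled peaks. Since the rule itself uses the IDR list, those counts only describe how the class was drawn.

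**Figure D2:**
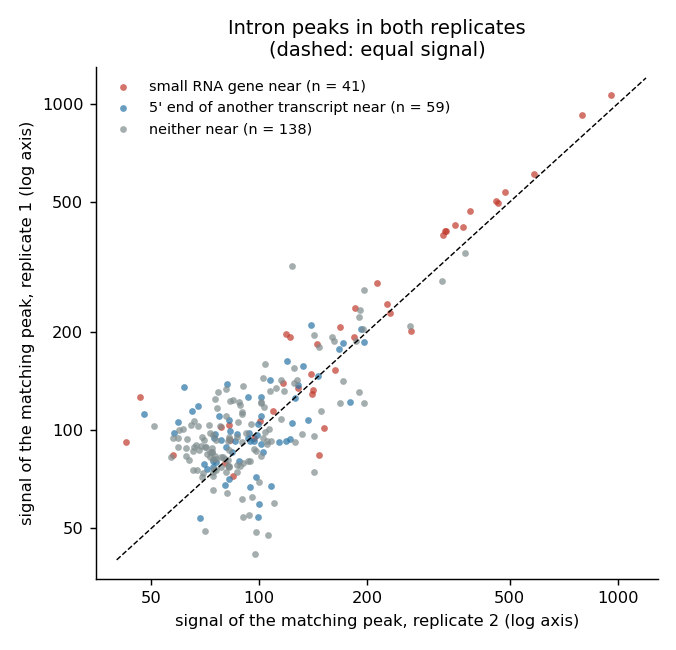
Signal of the matching peak in replicate 1 (vertical) against replicate 2 (horizontal), both on log axes, for the 238 intron peaks found in both relaxed lists; the dashed line marks equal signal. Peaks near small RNA genes (red, n = 41) reach 1064 in replicate 1 and 956 in replicate 2, while the medians over intron peaks are 97.9 in replicate 1 and 92.9 in replicate 2.

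Small RNA genes were annotated beside many intron peaks, relative to the few bases that lie near such genes. Of the 239 intron peaks 41 lay within 500 bp of a snoRNA, snRNA, miRNA or rRNA gene (17.2%, 12.6% to 22.5%), against 0.676% of the 27833191 bases that met the positional rule, called eligible bases from here on. Such a gene was also near 28 of the 270 intergenic peaks (10.4%) and 42 of the 656 promoter peaks (6.40%). For the 41 intron peaks the nearest gene was a snoRNA gene at 28, an miRNA gene at 9 and an snRNA gene at 4. It lay wholly in the same intron for 40 of the 41, all but the one at frm-7, and on the strand of the host gene for 30. Peaks at snoRNA genes had a median signal of 460, those at snRNA genes 269 and those at miRNA genes 185. Among the 59 strongest intron peaks 27 were near a small RNA gene (45.8%), against 14 of the 180 weaker ones.

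At snoRNA genes the summits were tightly placed. Their median position was 44 bp upstream of the 5' end of the snoRNA gene (quartiles -61 and -10, negative being upstream), and 25 of 28 lay between -80 and 50 bp. The other 3 lay more than 200 bp away. The host intron was short: peaks near small RNA genes lay in introns with a median length of 557 bp (quartiles 301 and 2227).

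Of the 25 strongest intron peaks 17 had a small RNA gene near, 16 of them a snoRNA gene. The strongest of all lay in an intron, 267 bp long, of frm-7, which encodes a FERM domain protein. Its signal was 1064 in replicate 1, 956 in replicate 2 and 2017 in the IDR list, and its summit lay 39 bp inside the snoRNA gene C51F7.4. The next was at cutl-18, a gene for a cuticlin-like protein of the cuticle, with 925 in replicate 1, 793 in replicate 2 and 1721 in the list, 34 bp upstream of the snoRNA gene T03F7.8. At pxn-1, which encodes the extracellular matrix enzyme peroxidasin, the values were 609 in replicate 1, 584 in replicate 2 and 1198 in the list, 12 bp upstream of ZK994.7. These 3 peaks were the strongest intron peaks in both replicates.

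The peak at mpk-2, a MAP kinase gene, had 536 in replicate 1, 486 in replicate 2 and 1017 in the list, 46 bp upstream of C04G6.12. The peak at madf-11, named for its MADF domain, had 503, 459 and 971 in replicate 1, replicate 2 and the list, 61 bp upstream of C05D2.15. The peak at cfim-2, whose product belongs to the cleavage factor that acts at messenger RNA 3' ends, had 495, 463 and 956 in the same order, 49 bp upstream of D1046.6. At mix-1, which encodes a condensin subunit that also acts in dosage compensation, the summit lay 72 bp upstream of M106.6 with 418, 369 and 782. Replicate 1 gave the higher value at all 4.

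Further snoRNA peaks followed the same layout. The IDR signal was 858 at haf-9, an ABC transporter gene, 780 at Y38F2AR.12 and 740 at unc-41, which acts in synaptic vesicle recycling. It was 729 at catp-8, a gene for a cation-transporting ATPase, 493 at T24H7.2, 471 at ppat-1, 467 at cogc-3 of the Golgi tethering complex and 454 at unc-70, the beta spectrin gene. At mdt-4, which encodes a subunit of Mediator, it was 418. Their summits lay from 68 bp upstream, at unc-70, to 14 bp downstream, at mdt-4, of the snoRNA 5' end, and the signal in each replicate lay between 185 and 470.

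The 4 peaks at snRNA genes were in dhc-4 (744), a dynein heavy chain gene, F58G1.7 (321), C28A5.6 (218) and mpc-1 (202). The dhc-4 peak had 408 in replicate 1 and 331 in replicate 2. The 31 bases at its summit occur 3 times in the genome and those of C28A5.6 occur 2 times, and reads from such copies cannot be assigned to one place with certainty. The 9 peaks at miRNA genes had a lower median signal than those at snoRNA genes, and their summits ranged, relative to the miRNA gene's own 5' end, between -312 and 408 bp. They included cel-mir-56 (362) and cel-mir-54 (252), both nested in F09A5.3, and cel-mir-58a (267) in Y67D8A.2. The peak at cel-mir-90 (240) in K01F9.2 had 83.6 in replicate 1 and 147 in replicate 2. The others were cel-mir-8192 (185), cel-mir-35 (179), cel-mir-2 (173), cel-mir-87 (156) and cel-mir-5595 (149). The mir-35 family is needed for embryonic development in worms.

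**Figure D3:**
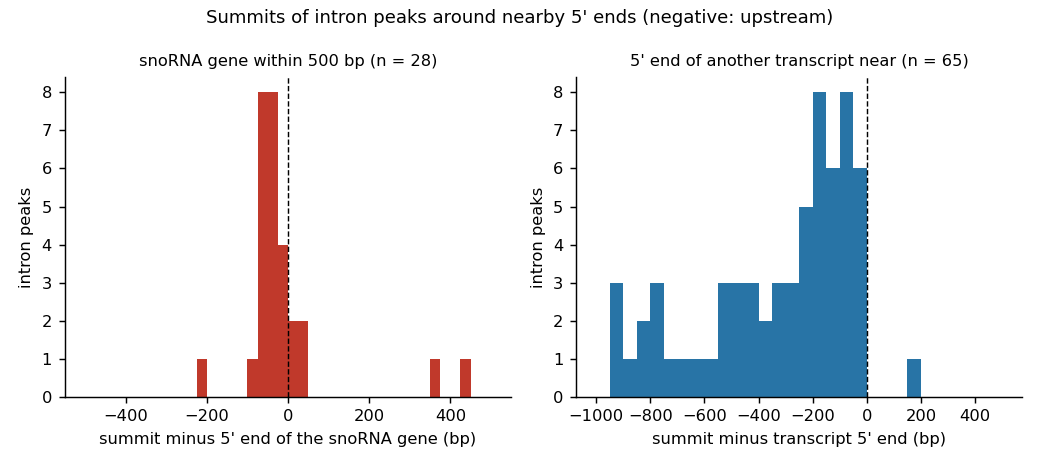
Number of intron peaks by the distance of the summit from the 5' end of the nearest snoRNA gene (left, n = 28, bins of 25 bp) and from the nearest transcript 5' end (right, n = 65, bins of 50 bp); negative values are upstream and the dashed line marks the 5' end. At snoRNA genes 25 of 28 summits lie between -80 and 50 bp, and at transcript 5' ends 63 of 65 lie upstream with a median of -236 bp. The rule drops summits in exons, which begin at transcript 5' ends, so the downstream side of the right panel was partly closed in advance.

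Of the 25 strongest, 8 had no snoRNA, snRNA, miRNA or rRNA gene near. At ints-8, which encodes a subunit of the Integrator complex, the values were 350 in replicate 1, 374 in replicate 2 and 725 in the list. That summit lay 31 bp inside rpr-1, the gene for the RNA of RNase P, which the annotation classes as ncRNA. At klp-6, a kinesin gene active in ciliated neurons, the summit lay 10 bp inside srpr-2.2, named for the RNA of the signal recognition particle, with 317 in replicate 1, 123 in replicate 2 and 584 in the list. Another signal recognition particle RNA gene, srpr-1.2, held both summits of ckb-2 (266 and 260). RNase P RNA and signal recognition particle RNA are read by RNA polymerase III in mammals. The 31 bases at the klp-6 summit and at the stronger ckb-2 summit each occur 4 times in the genome, and the replicates were far apart at klp-6. The ckb-2 peaks were picked after their values were seen.

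Sequence at further peaks carried the words of the tRNA boxes although no tRNA gene is annotated within 500 bp. Of these peaks 3 are shown as examples. At unc-104, which encodes the kinesin that carries synaptic vesicle precursors, the values were 286 in replicate 1, 324 in replicate 2 and 617 in the list, and the nearest annotated tRNA gene lay 1349 bp away. At Y57G11C.22 they were 205, 195 and 397. At srt-52, a member of a chemoreceptor family, they were 188, 187 and 374, and this peak was picked after its sequence had been seen.
unc-104, chrII:7001666-7001695, plus strand: gagaagtctgggGTTCGAttccccatacct
Y57G11C.22, chrIV:14838323-14838352, minus strand: atagtgtcctggGTTCGAacccgtcccctg
srt-52, chrV:53478-53507, plus strand: tcgcatggccgaGTGGTTAgtacgtatgcc
The capitals mark GTTCGA or GTGGTTA on the strand printed. Over all 239 intron peaks GTTCGA lay within 50 bp of the summit, on either strand, in 14 (5.86%, 3.24% to 9.63%). It was in 3.08% of eligible positions and 3.35% of flanks 200 to 300 bp from the summits. Promoter peaks had it in 4.57% and intergenic peaks in 5.56%. Of the 14 peaks, 7 were among the 41 near a small RNA gene. The other 7 were 3.54% of the 198 intron peaks with none near, which is close to the shares of flanks and positions.

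The remaining 4 of the 8 had other features. The strongest peak of ppfr-1, a gene for a regulatory subunit of protein phosphatase 4, had 526 in the list and 274 in replicate 1, with no match in replicate 2 by the 50% rule. Its summit lay in a run of alternating T and G, and the same 31 bases occur 1294 times in the genome. At mdt-26, another Mediator subunit gene, the values were 268 in replicate 1, 196 in replicate 2 and 455 in the list, in a window with 64.4% G and C. The last pair lay in pqn-41, described with the genes that hold several peaks.

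Away from small RNA genes the intron peaks lay in long introns. The intron around the summit, the smallest one where transcripts differ, had a median length of 2441 bp over the intron peaks (quartiles 900 and 5410), against 1029 bp over eligible bases (489 and 2580). Without a small RNA gene near, the medians were 3187 bp for peaks and 1027 bp for bases. Introns from 5000 bp to just under 10000 bp held 53 intron peaks (22.2%, 17.1% to 28.0%), against 9.23% of eligible bases, which is 20.6 peaks per Mb of eligible bases. Introns under 500 bp held 34 (14.2%, 10.1% to 19.3%), against 25.5% of the bases and 4.79 per Mb, and 20 of those 34 were near a small RNA gene. Introns of 10 kb and over held 13 peaks (5.44%), against 4.35% of the bases.

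**Figure D4:**
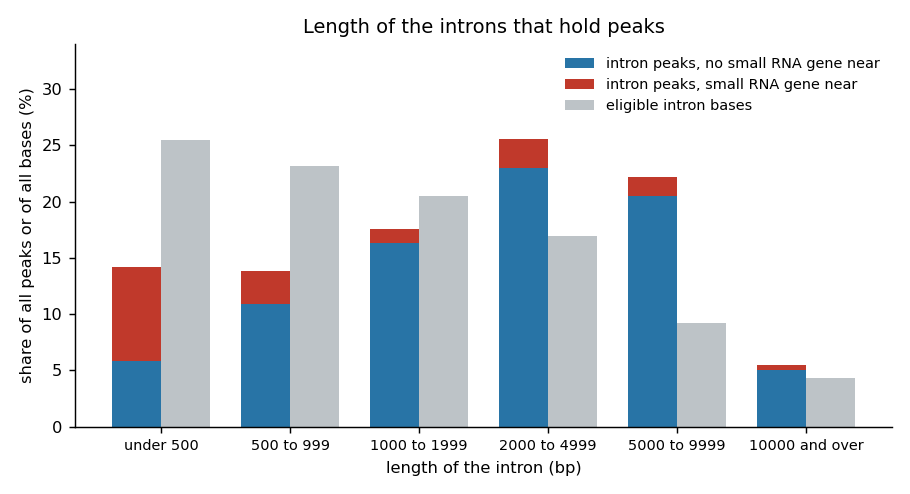
Share of the 239 intron peaks (coloured bars, split by whether a small RNA gene lies within 500 bp) and share of the 27833191 eligible bases (grey bars) by length of the intron in bp. Peaks without a small RNA gene make up 20.5% of intron peaks in introns from 5000 bp to just under 10000 bp, where 9.23% of the bases lie, and 5.86% in introns under 500 bp, where 25.5% of the bases lie.

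Introns were numbered within transcripts, by the lowest number that any protein-coding transcript of the gene gives them, so an intron numbered first can follow many exons of a longer transcript. First introns in this sense held 42.3% of intron peaks (35.9% to 48.8%), against 27.4% of eligible bases. Introns that were first in the whole gene, with 1 block of exons before them, held 56 peaks (23.4%, 18.2% to 29.3%), against 16.8% of bases. The first introns of shorter transcripts inside the gene held the other 45 (18.8%, 14.1% to 24.4%), against 10.6%. Second introns held 31 (13.0%, against 16.5%) and later ones 43.5% (against 55.8%). With introns numbered within transcripts, first introns of 2000 bp and over held 75 peaks (31.4%, against 15.2% of bases), and first introns under 2000 bp held 26 (10.9%, against 12.2%). Later introns of 2000 bp and over held 52 (21.8%, against 15.3%) and shorter later introns 83 (34.7%, against 57%). Few summits were close to splice sites, with 19 within 100 bp of an exon of the transcript (7.95%, 4.85% to 12.1%), against 30.1% of bases. The median summit lay 4297 bp from the 5' end of the host gene, and 106 of 239 lay more than 5000 bp away (44.4%, against 32.9% of bases).

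A part of the intron peaks lay at the start of another transcript of the host gene. The rule removed summits near gene 5' ends but not near the 5' ends of shorter transcripts inside the gene. By the same window 65 intron peaks were near such an end (27.2%, 21.7% to 33.3%), against 13.3% of eligible bases, and all 65 ends belonged to the host gene. The summit lay upstream of the end in 63 of 65, at a median of -236 bp (quartiles -479 and -128). That side was favoured in advance, since the window reaches further upstream and the rule drops summits in exons, which begin at those ends. Promoter peaks lay at a median of -203 bp from gene 5' ends (quartiles -364 and -88), with no step that dropped exons. The median signal was 187 for these 65 and 183 for the intron peaks with no such end near.

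The strongest of the 65 were at cfim-2 and cogc-3, whose snoRNA genes are described above. After them came T24B8.3 with 204 in replicate 1 and 193 in replicate 2, 467 bp upstream of the start of transcript T24B8.3c.1. At scc-2, which encodes the loader of cohesin onto chromosomes, the values were 186, 196 and 384 in replicate 1, replicate 2 and the list, 178 bp upstream of Y43H11AL.3a.1 in an intron of 8369 bp. At mvk-1 they were 185, 171 and 357, 519 bp upstream of Y42G9A.4b.1. The replicates were close to each other at all 3.

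Of the 239 intron peaks 139 had neither a small RNA gene nor a transcript 5' end near (58.2%, 51.6% to 64.5%), against 86.2% of eligible bases. Other noncoding genes were also annotated near intron peaks: genes of the class ncRNA lay within 500 bp of 65 (27.2%, 21.7% to 33.3%), against 6.40% of bases, and antisense RNA genes near 5 (2.09%, against 0.214%). These counts are over all 239 intron peaks and overlap the groups above, for example at cutl-18 and madf-11, which also have a snoRNA gene near. piRNA genes were near 5 (2.09%, against 4.38% of bases), lincRNA genes near none of the 239, which allows up to 1.53%, against 0.0874% of bases, and pseudogenes near 3 (1.26%, against 1.04%).

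The 239 intron peaks lay in 199 host genes, when each summit is given to the gene with the smallest intron around it. One peak lay in each of 173 hosts, 2 in 18, 3 in 4, 4 in 2 and 5 in 2. Host genes had a median length of 9859 bp, against 2476 bp for the 16054 protein-coding genes with eligible bases. An IDR summit also lay in the promoter window of 19 hosts (9.55%, 5.85% to 14.5%), against 4.48% of the 16054. Summits near tRNA genes count here, unlike among the 656 promoter peaks. Such hosts are called hosts with a promoter peak further below. The number of intron peaks counts some places 2 times, since 10 pairs of neighbours overlapped, and both peaks of a pair may be matched to the same replicate peak.

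The genes with 5 peaks were cdc-25.2 and pqn-41. The gene pqn-41, which encodes a glutamine-rich protein needed for the death of the linker cell in worms, held all 5 in an intron of 7776 bp, the first of a shorter transcript that starts inside the gene, from 15360 to 19563 bp past the gene 5' end. In order along the gene the signal was 421, 157, 286, 411 and 169, with 234, 79.3, 121, 222 and 130 in replicate 1 and 191, 89.9, 168, 189 and 189 in replicate 2. The first pair and the last pair overlap, so there were 3 separate places, and both peaks of the last pair were matched to the same peak of replicate 2. The cell cycle phosphatase gene cdc-25.2 held 5 peaks of 167, 198, 206, 166 and 159, from 3865 to 15574 bp past the gene 5' end. Only a transcript of the class ncRNA reaches that 5' end, and 3 of the 5 summits lay in no intron of a protein-coding transcript, the nearest of them 153 bp upstream of the first protein-coding transcript. These 3 are the only intron peaks with no such intron.

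Both genes with 4 peaks were on chromosome I. The gene let-526, which encodes an ARID subunit of the SWI/SNF chromatin remodelling complex, held 160, 249, 214 and 165, the first pair overlapping in 1 intron and the others in another. At ppfr-1 the values were 320, 526, 191 and 173, the first pair overlapping and the last one 278 bp upstream of cel-mir-2. The 4 genes with 3 peaks were ldb-1 (246, 157 and 155), a partner of LIM domain proteins, lit-1 (163, 219 and 242), the Nemo-like kinase of the Wnt pathway, mbk-2 (148, 181 and 153), a DYRK kinase of the oocyte-to-embryo transition, and zfp-1 (190, 169 and 225), a chromatin protein. Together these 8 genes held 30 intron peaks, 6 of them near the 5' end of another transcript and 1 near a small RNA gene. Outside ppfr-1 and pqn-41 the highest of these peaks was the one of 249 at let-526.

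**Figure D5:**
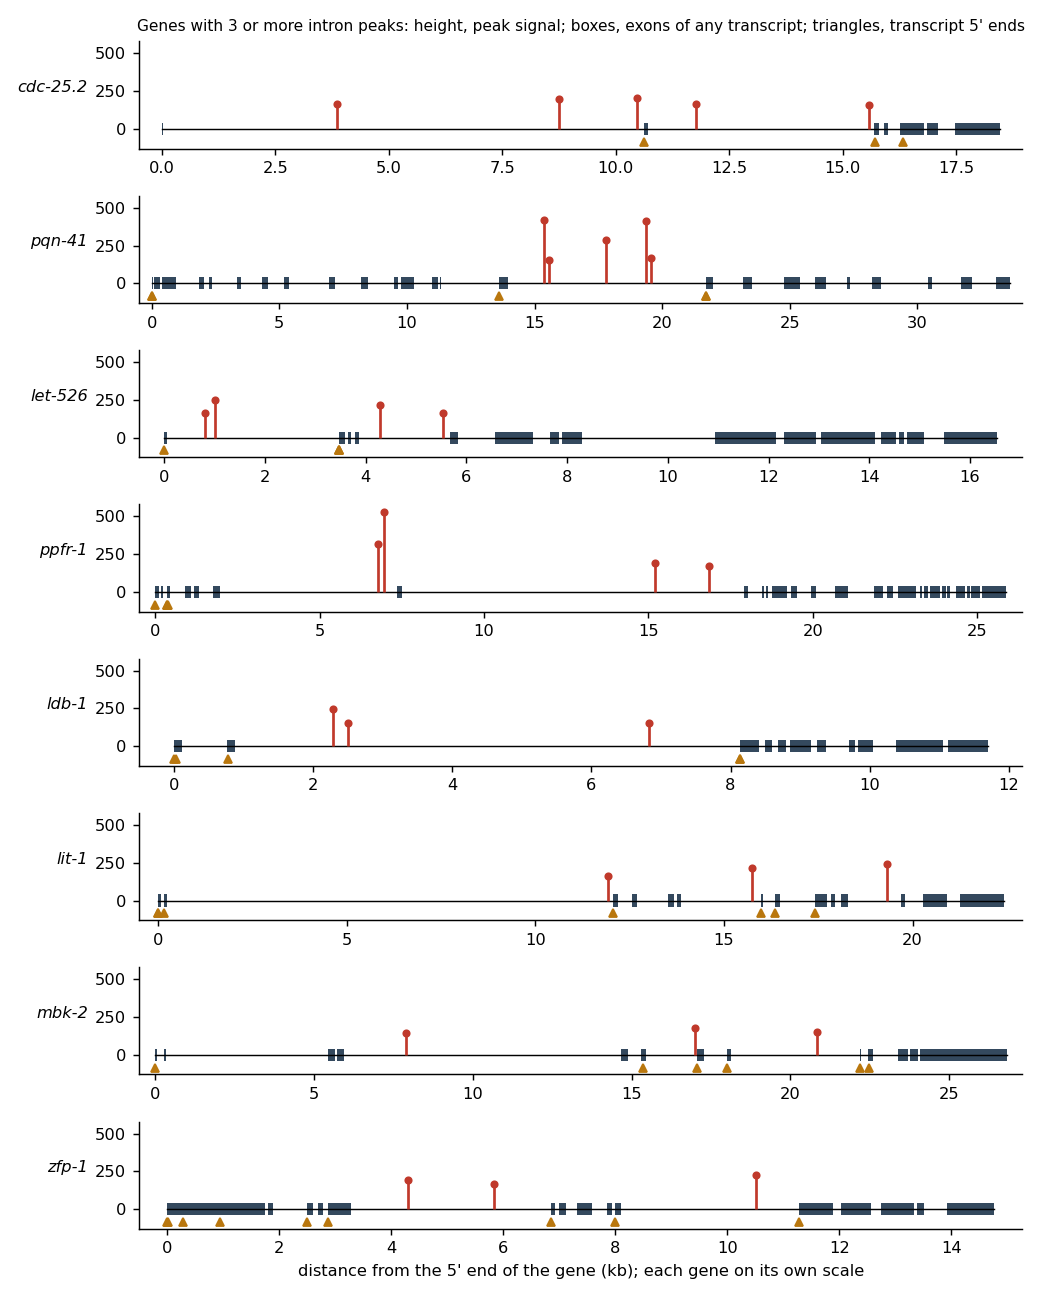
Genes with 3 or more intron peaks, each on its own scale of distance from the gene 5' end in kb; red lines give the signal of each intron peak, dark boxes the exons of any transcript and triangles the 5' ends of protein-coding transcripts. The peaks of pqn-41 lie within 1 intron from 15360 to 19563 bp with signals up to 421, while those of cdc-25.2 are spread from 3865 to 15574 bp with signals from 159 to 206.

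Hosts were set against 12 gene lists, which together name 2197 genes and took in 64 intron peaks in 51 hosts, which is 25.6% of hosts, against 12.2% of genes with eligible bases. Those shares of genes do not allow for gene length, and hosts had a median length of 9859 bp, against 2476 bp. No share of bases was computed for the lists together, so an excess of listed genes cannot be read from them. In each list the share of intron peaks stands beside the share of eligible bases in genes of the list. Chromatin regulators held 12 intron peaks in 6 hosts (5.02%, 2.62% to 8.61%, against 1.15% of bases). Their strongest peaks were at mix-1 (782), let-526 (249 and 214) and zfp-1 (225), and 7 of the 12 belong to let-526 and zfp-1. Intracellular signalling genes held 13 in 8 hosts (5.44%, 2.93% to 9.12%, against 3.5%), led by kin-20 (339), a casein kinase gene, gsa-1 (249), a G protein alpha subunit gene, and lit-1 (242 and 219). The kin-20 peak had 187 in replicate 1 and 161 in replicate 2.

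Synaptic vesicle and active zone genes held 6 (2.51%, 0.927% to 5.38%, against 1.23%), namely unc-41, unc-104, unc-108 (216), the Rab2 gene, unc-2 (184), a calcium channel gene, and 2 weaker ones. Cytoskeleton and cell polarity genes held 6 (2.51%, against 1.59%), among them frm-7, klp-6 and unc-83 (205), which acts in nuclear migration. Cell adhesion and axon guidance genes held 6 (2.51%, against 2.40%), among them igcm-4 (224 and 168), cam-1 (210), a receptor tyrosine kinase gene, and the cadherin gene hmr-1 (194). For each of these 3 lists the share of bases lies inside the interval of 0.927% to 5.38% that 6 of 239 gives.

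Transcription factors held 8 in 7 hosts (3.35%, 1.46% to 6.49%, against 4.57%). Their strongest were lag-1 (261), the effector of Notch signalling, ast-1 (257), an ETS factor, nhr-1 (186), a nuclear receptor, and zip-2 (178), a bZIP factor. The lag-1 peak had 114 in replicate 1 and 149 in replicate 2. Genes of the Wnt, Notch, TGF-beta and EGF pathways held 3 (1.26%, against 0.726%), at mom-1 (316), needed for Wnt secretion, lag-1 and sel-8 (148), a Notch co-activator. Ion channels and receptors held 1, at lgc-46 (153), which is 0.418% (0.0106% to 2.31%) against 5.07% of bases.

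RNA-binding and splicing genes held 4 (1.67%, against 0.904%), at rbm-34 (376), larp-1 (265), sup-26 (196) and asd-2 (191). Muscle genes held 4 (1.67%, against 1.18%), at unc-70, the actin gene act-4 (285), unc-89 (173) and the tropomyosin gene lev-11 (171). Extracellular matrix genes held 2 (0.837%, against 1.09%), at pxn-1 and ost-1 (214), the SPARC gene. Translation genes held none of the 239, which allows up to 1.53%, against 0.0809% of bases. At frm-7, pxn-1, mix-1, unc-41, unc-70 and rbm-34 the summit lay beside a nested snoRNA gene, and at zip-2 a small RNA gene was near. At these hosts the role of the host and the place of the peak cannot be told apart.

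Intron peaks were rich in G and C. The 50 bp to either side of the summit had a median of 50.5% (quartiles 46.5% and 55.9%), against 39.6% in flanks 200 to 300 bp away and 32.2% over eligible bases. Promoter peaks had 50.5% and intergenic peaks 51.5%, which are within 1 percentage point of it. Near a small RNA gene it was 54.5% and elsewhere 50%. Its part in the signal was not tested.

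Among 11 words searched on both strands in these windows, repeats of G and A stood out. GAGAGA was present in 60 intron peaks (25.1%, 19.7% to 31.1%), against 9.83% of flanks and 4.30% of eligible positions, with 19.5% in promoter and 30% in intergenic peaks. All but 2 of the 60 had no small RNA gene near. GGGCGG, the GC box, was present in 27 (11.3%, 7.58% to 16.01%), against 3.14% of flanks and 1.68% of eligible positions, with 11.7% in promoter and 5.93% in intergenic peaks. Runs of A, AAAAAAA, were in 16 (6.69%), against 16.3% of flanks and 30.8% of positions, with 8.38% in promoter and 4.44% in intergenic peaks. TTTCAG, the letters of the splice acceptor, was in 8 (3.35%), against 15.7% and 23.3%, with 6.71% in promoter and 4.07% in intergenic peaks.

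TAATTA, the core of homeodomain sites, was in 2 (0.837%), against 5.23% of flanks and 5.44% of positions, with 1.83% in promoter and 0.370% in intergenic peaks. TATAAA was in 15 (6.28%), against 10.7% and 12.5%, with 8 of the 15 among the 41 peaks near a small RNA gene. Those 8 are 19.5% of the 41 (8.82% to 34.9%), and the other 7 are 3.54% of the 198 intron peaks with no small RNA gene near. TATAAA was in 3.51% of promoter and 1.11% of intergenic peaks. CACGTG, the E-box, was in 4 (1.67%), against 1.88% and 1.37%. AGATAA, the GATA factor site, was in 6 (2.51%), against 4.81% and 5.84%, with 2.44% in promoter and 7.41% in intergenic peaks. TGACGT was in 6 (2.51%), against 2.09% and 2.69%, and AGGTCA in 7 (2.93%), against 3.14% and 2.35%. For the homeodomain core, the TATA box and the GATA factor site the whole 95% interval over the 239 intron peaks lies below the share of eligible positions. For the other 3 words it spans that share. The interval for the TATA box in the 41 peaks near a small RNA gene spans that share too.

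The word GAGACGC was picked from all words of 7 letters after the counts were seen. It lay within 50 bp of the summit in 20 intron peaks (8.37%, 5.19% to 12.6%), against 1.46% of flanks and 0.752% of eligible positions, with 7.93% in promoter and 9.63% in intergenic peaks. Of these 20, 19 had no small RNA gene near, and 8 of the 19 also held GAGAGA, which can overlap it by 4 letters. In windows of 17 of these peaks, read on the strand of the word, the next bases were AG in 12 and others in 5. Windows of 5 of the 12 are printed. All hosts but lit-1, larp-1 and cam-1 were picked after their sequences had been seen.
larp-1, chrIII:5014080-5014109, plus strand: gaggcccaataaGAGACGCagagaaacgaa
inso-1, chrX:1302405-1302434, minus strand: ggggagagctggGAGACGCagagtatatat
lit-1, chrIII:13717697-13717726, minus strand: cgatgaagaagtGAGACGCagacacaagac
cam-1, chrII:9308787-9308816, plus strand: tactgattcaatGAGACGCagagacacagg
mpk-1, chrIII:4223787-4223816, plus strand: agggagtatcaaGAGACGCagacatttaga
The signal at these 5 peaks was 265, 225, 219, 210 and 161 in the order printed. The 19 peaks with the word and no small RNA gene near had a median signal of 184, and the other peaks with none near had 175.

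Repeats of C and A were the other kind. CACACAC, also picked after the counts were seen, was in 40 intron peaks (16.7%, 12.2% to 22.1%), against 4.60% of flanks and 1.16% of eligible positions, with 9.45% in promoter and 13.7% in intergenic peaks. At least 1 of GAGAGA and CACACAC was present in 83 of the 198 intron peaks without a small RNA gene near (41.9%), and both in 13. No such joint share was computed for flanks, eligible positions, promoter peaks or intergenic peaks. The 41.9% can therefore not be read as particular to intron peaks. An example of each repeat is shown.
mbk-2, chrIV:13026119-13026148, minus strand: gagaaagagaaaGAGAGAgagagaaggcgt
ast-1, chrII:4130437-4130466, minus strand: acaacacacacaCACACACacacacacaca
The mbk-2 peak had 92.8 in replicate 1 and 94.1 in replicate 2, and the ast-1 peak 159.3 and 103.8. The 31 bases at the summit occur elsewhere in the genome for 10 of the 239 intron peaks.

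By chromosome, 47 intron peaks lay on I, 34 on II, 51 on III, 30 on IV, 32 on V and 45 on X. Chromosome III held 21.3% (16.3% to 27.1%), against 16.2% of eligible bases, and X held 18.8% (14.1% to 24.4%), against 16.7%. Chromosome IV held 12.6% (8.63% to 17.43%), against 17.4%, and V held 13.4% (9.34% to 18.4%), against 17.3%. The shares of I and II were 19.7% and 14.2%, against 18.4% and 13.9% of bases. At the edges of the rule, the summits nearest to the tRNA distance on the dropped side lay 183 and 474 bp from a tRNA gene with signals of 147 and 352. On the kept side they lay 931 and 1349 bp away, with 1198 at pxn-1 and 617 at unc-104. At the edge of the promoter window, summits 495 bp downstream (159) and 1000 bp upstream (1198) of a gene 5' end were dropped, and summits 533 bp (160) and 535 bp (184) downstream were kept. The tRNA step dropped 87 summits that would have passed the others, with a median signal of 328.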

How the data were processed

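ChIP-seq of 2 biological replicates gave peak lists on ce11 and, in parallel, on ce10. Per the file headers, the authors made a relaxed list for each replicate and for the pool, with a control, and kept peaks from these by IDR. Not given in the sources used here: aligner, peak caller, IDR threshold, signal scaling. The deposited signal served to order and describe peaks inside 1 list. Signals of the 2 replicates were also set beside each other, on a scale that is not given. The deposited −log10 q-value was used only to break ties, and the deposited summit offset to place summits. No read counts are in these lists, so depth is unknown.

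Every nuclear IDR peak on ce11 was placed on Ensembl release 115 of WBcel235, the same assembly, and sequence came from the RefSeq copy of that assembly. Eligible bases are those that meet the positional rule. Shares have exact Clopper-Pearson intervals at 95%, which reflect counting error alone. Peaks of 1 list are no replicates, and no test was run. The A box and B box were searched by their usual consensus at a gap of 20 to 60 bp. The ce10 IDR list was used only as a count of nuclear peaks, 1430. The positional steps were checked on 3000 random positions by brute force, and all 3000 were given the same class.

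Members and lists were chosen with earlier results of these data known. Named genes were the hosts of the 25 intron peaks with the highest signal, hosts with 3 or more, up to 4 intron peaks per list, small RNA genes near the 25, and 5 intron peaks of highest signal near the 5' end of another transcript. Genes of the remaining snRNA and miRNA peaks were named as well, after their values were seen. A few items that this rule would name are not reported here. The alternatives were the 711 strongest peaks, the 1423 strongest of either replicate by itself, a tRNA distance of 1000 bp, dropping peaks near small RNA genes or in noncoding exons, a promoter window of 500 bp, windows at transcript 5' ends, other matching rules and other windows. Counting overlapping intron peaks once and numbering introns within the whole gene were added after the data had been seen. Figures were drawn with Matplotlib 3.10.9, and tables and intervals were computed with SciPy 1.17.1, pandas 2.3.3 and NumPy 2.4.6 under Python 3.11.15.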

Additional observations from a re-analysis of the deposited data

How the results depend on the processing

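Among the 711 strongest nuclear peaks the counts and several shares moved: 90 intron peaks in 81 host genes, 98.9% matched in both replicates, a median signal of 286, 33.3% in a first intron, 34.4% near a small RNA gene, 4.94% of hosts with a promoter peak and a median of 53.5% G and C. With a promoter window of 500 bp upstream 5.39% of hosts had a promoter peak. The share over all genes with eligible bases was not computed for that window or for the 711 strongest peaks. So neither host share can be set against the 4.48% of the main setting. With introns numbered in the whole gene, an alternative chosen after seeing the data, 23.4% of intron peaks lay in a first intron. With windows at the 5' ends of all transcripts 35.6% of intron peaks lay in a first intron. Matching summits within 100 bp gave 56.1% matched in both replicates, and a window of 100 bp to either side gave 49.3% G and C. In that wider window GAGAGA was in 46.9%, AAAAAAA in 13.8%, TTTCAG in 8.37%, AGATAA in 6.28%, CACGTG in 4.60% and TAATTA in 3.77% of intron peaks. The other 87 of 100 values stayed within 1.5 times the reported count or inside the 95% interval of the reported share or median, among them all values from 1 replicate alone and all with overlapping intron peaks counted once. No value for intron peaks was computed on ce10. No paired analysis was possible because the design has 1 group and no comparison between groups. The files hold no read counts, so how depth limits the list is unknown. Intron peaks that did not pass IDR are not described. Regions with several genomic copies, snRNA and srpr genes among them, depend on how the authors placed such reads, which is not given in the sources used here.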

Other observations

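Other words of 7 letters were counted in the 41 intron peaks near small RNA genes and their flanks. GGGTCGA, whose reverse complement overlaps the letters of the B box, was present within 50 bp of the summit in 9 of the 41 and in neither flank of any, and in 2 of the other 198 intron peaks. CAAGCGC was in 6 of the 41 and in neither flank. Among the 198 without a small RNA gene near, CGCGCGC was in 14, against a mean of 1.5 in a flank, and CTGCGTC in 16, against 3.

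The transcription factor gene daf-16, the FOXO factor of the insulin pathway, held 2 intron peaks in an intron of 7676 bp, with signals of 151 and 162, outside the named genes and picked after their values were seen. At usp-39 a peak of 343 had 27.7% G and C within 50 bp of its summit, with 195 in replicate 1 and 143 in replicate 2.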
